A study of Homo sapiens with 15 samples.

Results

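Wild-type ETV6 was compared with a fluorescent protein control in Reh cells, in 6 of the 15 libraries of a messenger RNA sequencing series. Reh is a human B-lymphoblastic leukaemia line with the ETV6::RUNX1 fusion, in which no intact ETV6 allele is left. The libraries were chosen by their titles: 3 with V5-tagged wild-type ETV6, called ETV6_WT, and 3 with tagBFP, a blue fluorescent protein. Both kinds of cell carried a doxycycline-inducible vector and were induced with 500 ng/ml of the drug over 48 h, so the drug, the kind of vector and the fusion were common to both groups. A further 3 libraries with V5-tagged ETV6 R399C, induced in the same way, were used to test where the wild-type form differed from it. The remaining 6 libraries were not used. The cells were transduced populations, not clones, and ETV6 came from an induced vector and carried a tag. Whether replicates came from separate cultures is not stated, so p-values measure only the spread between these libraries, which may be technical.

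ETV6 is a transcription factor of the ETS family. It binds DNA at sites with a GGAA core and recruits corepressors and histone deacetylases, and it is known mainly as a repressor in blood-forming cells. Many B-lymphoblastic leukaemias with ETV6::RUNX1 also lose the second ETV6 allele, and inherited variants of its DNA-binding ETS domain, where R399C lies, predispose to this leukaemia.

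The libraries held 23324816 to 34046795 estimated reads. Reads were summed per gene and are given as CPM, read counts relative to the library's total after scaling between libraries, a scale that compares 1 gene across libraries. TPM, which also accounts for transcript length, is used where genes are compared with each other. The biological coefficient of variation was 4.95%, which lets changes well below 1.2-fold pass the test. Mitochondrial reads made up 0.956% to 1.16% with ETV6_WT and 1.158% to 1.419% with tagBFP. Library pairs with tagBFP replicate 3 differed most within a group (chi-square over degrees of freedom 5.98 and 6.5, against 2.89 to 4.2 for other pairs), and 4733 genes passed the main test without it. Markers of B precursors summed to 4140 to 4291 TPM in the tagBFP libraries and 5595 to 5632 TPM in the ETV6_WT libraries, with 13 of 14 tested members higher. Of the 15 B precursor markers only VPREB1 was listed at 0. T-cell and NK markers summed to 23.3 to 25.0 TPM and 22.9 to 26.8 TPM, and CD3D, CD2, CD8B and GZMB were listed at 0. Myeloid markers summed to 47.4 to 52.5 TPM with tagBFP and 58.4 to 65.8 TPM with ETV6_WT, with ELANE, PRTN3, S100A8, S100A9 and CEBPA listed at 0. Erythroid and megakaryocyte markers summed to 19.0 to 21.1 TPM and 13.5 to 14.3 TPM, with the globin genes HBA1, HBA2, HBB and HBG1 and the factor GATA1 listed at 0. Endothelial and stromal markers summed to 164 to 184 TPM and 206 to 207 TPM, with CDH5, KDR, COL3A1, LUM, THY1 and CLDN5 listed at 0. Stem and progenitor markers summed to 43.85 to 46.89 TPM and 44.17 to 48.65 TPM, with MEIS1, CRHBP and THY1 listed at 0. The tested members numbered 5 for T-cell and NK, 11 for myeloid, 3 for erythroid and megakaryocyte, 6 for stem and 5 for endothelial markers. In this order 0, 2, 0, 0 and 2 were higher and 1, 3, 2, 2 and 0 lower. Over all genes 17.6% were higher and 18.9% lower. In bulk RNA, fewer cells of a type and less RNA per cell cannot be told apart.

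The measured level of ETV6 was low in the tagBFP cells and high in the ETV6_WT cells, both given doxycycline. Reads of the fusion may count to ETV6, so the control values need not come from intact ETV6. ETV6 measured 1.75, 3.02 and 2.15 TPM in the tagBFP libraries and 577, 579 and 572 TPM in the ETV6_WT libraries. All ETV6_WT libraries lay far above all controls. On the CPM scale the values were 6.08, 6.01 and 5.49 with tagBFP and 465, 498 and 495 with ETV6_WT. The log2 fold change was 6.37 ± 0.055 (SE, n = 3 per group, adjusted p = 2.0e-14). With the average transcript length of each library as an offset, the log2 fold change was 8.02. For the ETV6_R399C libraries the log2 fold change against the same tagBFP libraries was 5.99. ETV6 was higher in ETV6_WT than in ETV6_R399C (log2 difference 0.38, adjusted p = 2.5e-05), so the 2 forms are compared below at unequal levels.

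A large share of the transcriptome differed by small amounts between the ETV6_WT and tagBFP libraries. Whether the transduced populations differed apart from the induced protein was not tested. Of 14242 genes tested, 5202 (36.5%) passed the test, 2505 higher (17.6%) and 2697 lower (18.9%), at an adjusted p below 0.05. On simulated counts the share of false calls lay above that threshold, so it is nominal. For 48.2% of genes the 2 groups did not overlap. Of the calls, 2629 (50.5%) were smaller than 1.2-fold. In that smallest class 1145 genes were higher and 1484 lower. The balance was the other way among large changes: 175 of 281 calls of 2 to 4-fold were higher, and 66 higher and 35 lower by at least 4-fold. Calls of at least 2-fold made up 2.68% of the genes tested. Of the 5202 calls, 1841 (35.4%) also passed between ETV6_WT and ETV6_R399C in either direction, against 21.4% of all genes. Both comparisons use the same ETV6_WT libraries, so a larger share is partly built in. With average transcript length as an offset, 2913 genes passed, of which 2757 were among the 5202, and 352 in place of 382 genes changed at least 2-fold.

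**Figure D1:**
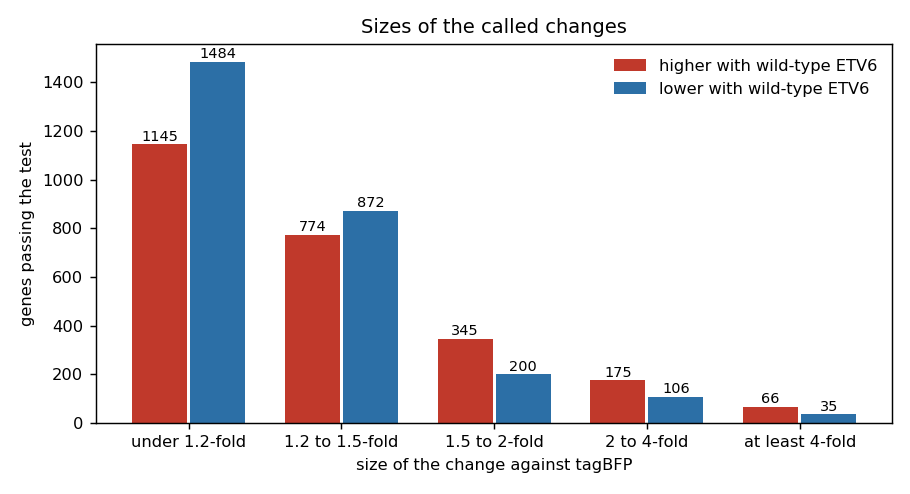
Number of genes passing the test (vertical axis) by size of the change between wild-type ETV6 and tagBFP (horizontal axis), with higher genes in red and lower genes in blue. Lower genes outnumber higher ones below 1.2-fold (1484 against 1145), and higher genes outnumber lower ones at 4-fold and more (66 against 35).

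Among the most abundant messenger RNAs the changes were modest in fold and large in molecules. Genes named here for their TPM difference, and below for their fold change, were taken only where the groups did not overlap. The histone variant gene H2AFY, which encodes macroH2A1, a variant found in repressed chromatin, rose from 706 to 1039 TPM. It measured 819.6, 846 and 831 CPM with tagBFP and 1197, 1199 and 1189 CPM with wild-type ETV6. It lay above all controls in all ETV6_WT libraries (log2 0.52 ± 0.023, adjusted p = 1.5e-08). Against the same controls its log2 fold change with R399C was 0.01, and the 2 forms differed (adjusted p = 8.3e-08). LAPTM5, a lysosomal protein of lymphocytes that lowers surface antigen receptor levels, went from 702 to 1166 TPM (log2 0.71 ± 0.024, adjusted p = 2.2e-09). B2M, the light chain of MHC class I, went from 2447 to 3195 TPM (log2 0.38 ± 0.042, adjusted p = 3.3e-05), with 0.08 for R399C and a difference between the forms (adjusted p = 4.5e-04). The translation elongation factor EEF1A1 was the most abundant of these, from 8092 to 9014 TPM at a log2 change of 0.14 (adjusted p = 0.00171).

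The abundant messenger RNAs that fell included those of nucleolar, translation and glycolytic proteins. NPM1, a nucleolar chaperone, fell from 2899 to 2408 TPM (log2 -0.27 ± 0.037, adjusted p = 1.9e-04), and NCL, nucleolin, from 1763 to 1515 TPM (log2 -0.26 ± 0.032, adjusted p = 6.8e-05). EIF5A, a translation factor that depends on polyamine synthesis, fell from 939 to 729 TPM (log2 -0.39 ± 0.04, adjusted p = 1.8e-05). The histone variant H2AFZ fell from 1867 to 1577 TPM (log2 -0.27 ± 0.029, adjusted p = 2.9e-05). The glycolytic enzyme ENO1 fell from 1111 to 907 TPM (log2 -0.31 ± 0.039, adjusted p = 8.6e-05). In the 3 last-named genes R399C gave -0.51, -0.37 and -0.45 against the same controls. EIF5A shares exon sequence with GPS2 in the annotation, so part of its reads may belong to that gene.

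The large rises spanned genes of several kinds. Where sets of values are joined by 'and then', the first are from tagBFP libraries and the second from ETV6_WT libraries, not from earlier and later times. Amounts by which a gene rose or fell, and values given for R399C, are log2 fold changes against tagBFP from here on, and each gene said to rise or fall passed the test. RHOB, a small GTPase of endosomes and the actin skeleton, measured 39.7, 38.7 and 38.9 CPM with tagBFP and 143, 141 and 142 CPM with wild-type ETV6. Its libraries were tight within each group and far apart between them (log2 1.86 ± 0.028, adjusted p = 4.3e-12). R399C gave 1.27, below wild-type (adjusted p = 5.9e-08). INHBB, a subunit of activin B, measured 10.99, 11.3 and 8.69 CPM and then 38.3, 35.4 and 36.7 CPM, more than the spread of either group (log2 1.82 ± 0.087, adjusted p = 2.9e-08). With R399C its log2 fold change was 0.42, and the forms differed (adjusted p = 1.1e-06). TBX21, the T-box factor of type 1 lymphocyte programmes, measured 4.34, 3.51 and 3.59 CPM and then 10.2, 11.6 and 13.1 CPM, with no overlap (log2 1.60 ± 0.125, adjusted p = 1.7e-06). R399C gave -0.16 (adjusted p = 0.395), and the difference from wild-type passed the test (adjusted p = 3.4e-06).

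The 20 largest rises that met the naming rule also included genes of secreted proteins and peptides. NPY, neuropeptide Y, rose from 10.4 ± 0.701 CPM with tagBFP to 34.7 ± 0.632 CPM with wild-type ETV6 (log2 1.74), and CTHRC1, a secreted collagen-related protein, from 2.13 ± 0.322 CPM with tagBFP to 8.01 ± 0.576 CPM with wild-type ETV6 (log2 1.90). Both were higher than with R399C, at adjusted p = 1.6e-06 and 2.5e-05. LGALS1, the secreted lectin galectin-1, measured 9.44, 9.56 and 10 CPM and then 27.8, 29.1 and 28.9 CPM, with no overlap (log2 1.57 ± 0.052, adjusted p = 2.1e-09). AGR2, a disulfide isomerase of the secretory pathway, had a log2 fold change of 1.86, AMBP, the precursor of a serum protease inhibitor, of 1.73, and the natriuretic peptide gene NPPC of 1.56. The adjusted p of these 3 ran up to 5.4e-06. Not every large rise was stronger with wild-type ETV6: BEST3, a chloride channel of the bestrophin family, rose by 1.73 and by 2.04 with R399C, which was the larger (adjusted p of the difference = 6.1e-05). TNFRSF18, the receptor GITR, rose by 1.63 and by 1.83 with R399C, a difference that did not pass the test (adjusted p = 0.181).

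**Figure D2:**
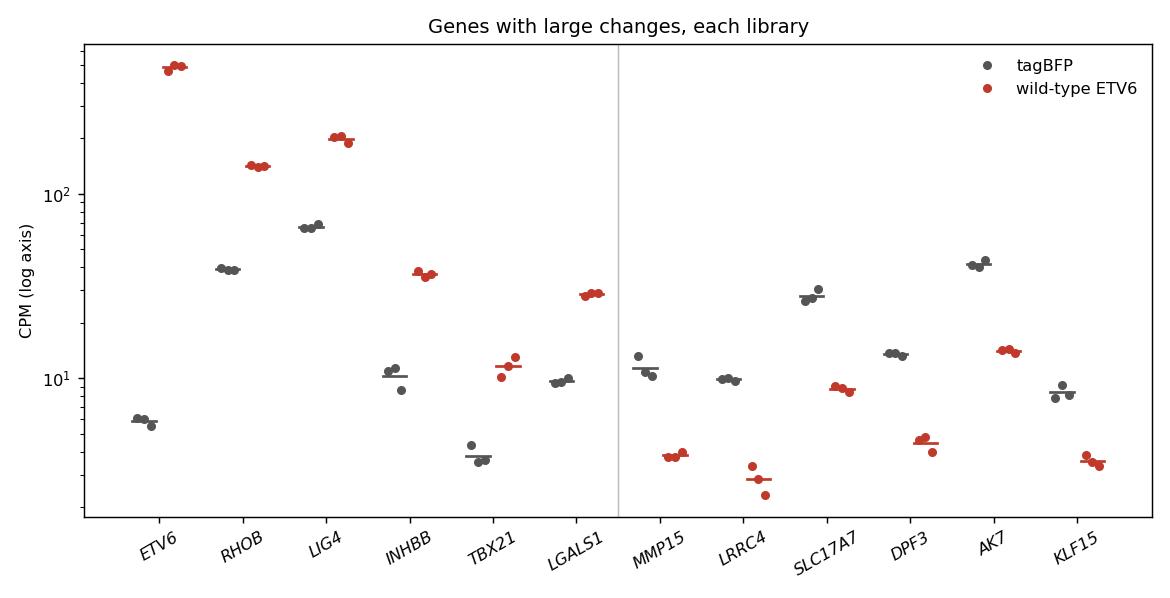
CPM (vertical log axis) of ETV6, 5 genes that rose and 6 that fell in each library, tagBFP in grey and wild-type ETV6 in red, with the group mean as a bar. The 3 libraries of each group lie close together and the groups do not overlap for any of the 12 genes. RHOB, for example, lies between 38.7 and 39.7 CPM with tagBFP and between 141 and 143 CPM with wild-type ETV6. Genes named by fold change had to have groups that did not overlap.

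The deepest falls included genes with synaptic roles. SLC17A7, a vesicular glutamate transporter, measured 26.2, 27.2 and 30.7 CPM with tagBFP and 9.12, 8.83 and 8.45 CPM with wild-type ETV6, without overlap (log2 -1.67 ± 0.068, adjusted p = 8.3e-09). LRRC4, a synaptic adhesion protein, fell from 9.86 ± 0.144 CPM with tagBFP to 2.84 ± 0.507 CPM with wild-type ETV6 (log2 -1.80). R399C gave -0.30 for SLC17A7 and -0.08 for LRRC4, and both were lower with wild-type ETV6 than with R399C (adjusted p = 2.2e-07 and 1.6e-06).

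Other deep falls were in genes with other roles. AK7, an adenylate kinase of cilia, measured 41.05, 40.1 and 43.6 CPM and then 14.2, 14.4 and 13.7 CPM, clearly apart (log2 -1.56 ± 0.059, adjusted p = 4.7e-09), while R399C gave 0.17. KLF15, a zinc-finger factor of metabolic genes, fell from 8.39 ± 0.688 CPM with tagBFP to 3.57 ± 0.258 CPM with wild-type ETV6 (log2 -1.23) and had 0.16 with R399C, a difference that passed the test (adjusted p = 2.6e-06). DPF3, a chromatin reader of the BAF complex, fell by 1.59 on the log2 scale, and MMP15, a membrane metalloprotease, fell by 1.58. GNG11, a G-protein subunit, fell by 1.46 with wild-type ETV6, with R399C at -1.22, and the difference did not pass the test (adjusted p = 0.147). EPHA7, an ephrin receptor, fell less with wild-type ETV6 (-1.39) than with R399C (-2.25; adjusted p = 0.00149).

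The remaining results describe 45 lists of genes by role, each by the number of tested members that passed and by the median log2 fold change of all its tested members. The median over all 14242 genes was -0.001, and the background shares are 17.6% higher and 18.9% lower. For ETV6_WT against ETV6_R399C, 3044 of all genes passed (21.4%), with 1721 higher in ETV6_WT (12.1%) and 1323 lower (9.29%). That split turned in some settings, with 1336 higher and 1549 lower under upper-quartile scaling, 1400 and 1589 with only 6 libraries in the fit, and 1300 and 1447 with no filter on low counts. Under RLE scaling it kept its direction, 1504 and 1393. With transcript length as an offset 1236 genes passed, and without ETV6_R399C replicate 1 or ETV6_WT replicate 2 the number was 2008 or 2009. R399C against the same tagBFP libraries gave 5826 calls (40.9%), 2673 higher (18.8%) and 3153 lower (22.1%).

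**Figure D3:**
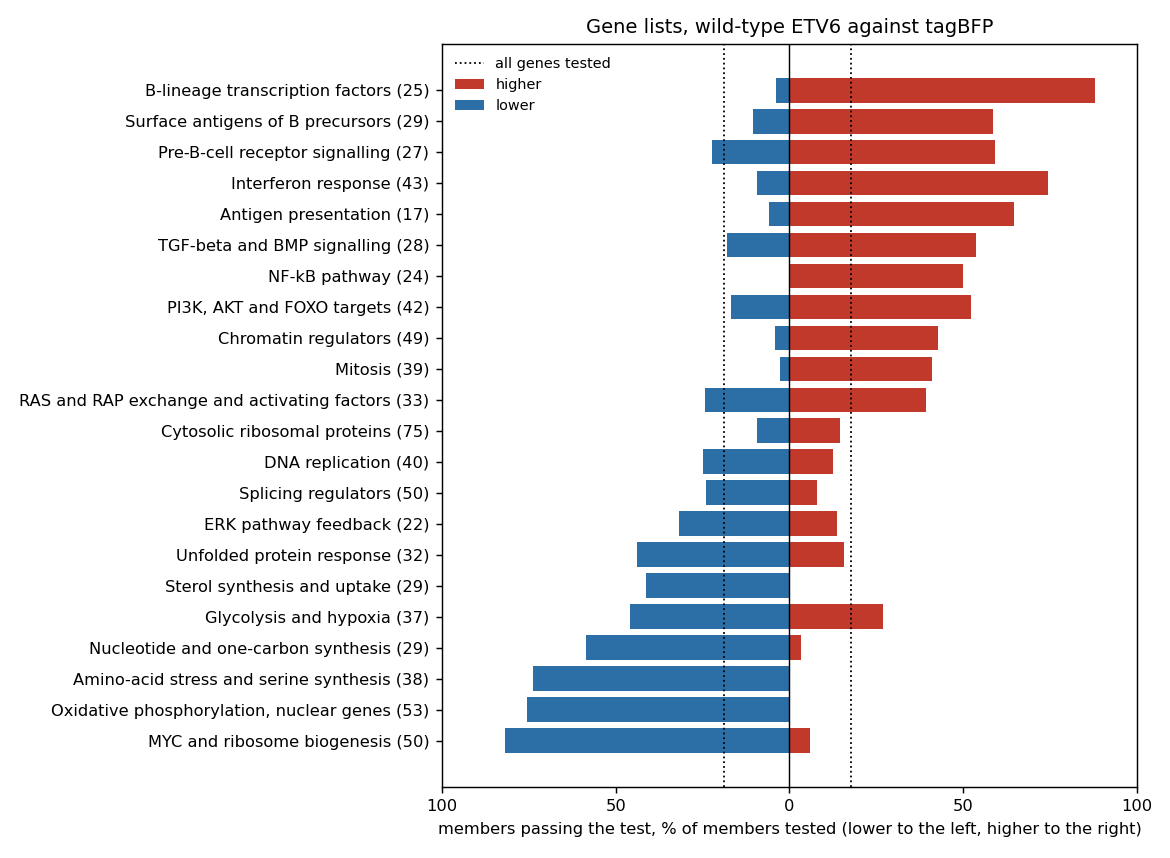
Share of tested members of 22 gene lists that passed the test (horizontal axis, % of members), higher to the right in red and lower to the left in blue, with the number tested in parentheses and the share over all genes as dotted lines (17.6% higher, 18.9% lower). Of 25 B-lineage transcription factors 22 were higher, and of 50 MYC and ribosome biogenesis genes 41 were lower.

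B-lineage regulators were higher almost throughout. Of 25 tested transcription factors of the lineage, 22 rose, 1 fell and 2 did not pass, with a median log2 fold change of 0.464. IKZF2, the Ikaros family member Helios, measured 63.5, 58.9 and 52.9 CPM and then 150.2, 153 and 155 CPM, far apart (log2 1.38 ± 0.059, adjusted p = 1.3e-08). SOX4, needed for early B-cell survival, rose from 204 ± 4.22 CPM with tagBFP to 326 ± 5.55 CPM with wild-type ETV6 (log2 0.67). LEF1, a nuclear mediator of WNT signals in pro-B cells, rose by 0.46 and ID3, an inhibitor of E proteins, by 0.66. IRF8, a partner of PU.1 in B precursors, rose by 0.89. BCL6, the germinal-centre repressor that also protects pre-B cells, was the exception. It measured 140.4, 138 and 138 CPM with tagBFP and 103.8, 103.8 and 106.5 CPM with wild-type ETV6. It lay below all controls in all ETV6_WT libraries (log2 -0.41 ± 0.026, adjusted p = 3.7e-07). With R399C it was 0.13, and the forms differed (adjusted p = 2.0e-07). The R399C median of the list was also 0.464, with 24 members higher, and 11 members were lower in ETV6_WT than in ETV6_R399C and 4 higher (4 and 1 with transcript length as an offset).

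Receptor components and surface antigens moved with them. In the pre-B-cell receptor list 16 of 27 tested members rose and 6 fell (median 0.203). CD72, an inhibitory coreceptor, rose by 0.87, INPP5D, the lipid phosphatase SHIP1, by 1.21, and PIK3CD, the lymphocyte PI3-kinase, by 0.65. Of 29 tested surface antigens 17 rose and 3 fell (median 0.331), among them CD22 (0.40) and the tetraspanin CD81 (0.59). With R399C against tagBFP, 16 surface antigens were higher and 3 lower (median 0.292). In the pre-B-cell receptor list these were 18 and 5 (median 0.181). In ETV6_WT 10 surface antigens were higher and 3 lower than in ETV6_R399C.

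The machinery of V(D)J recombination moved in both directions. Of 15 tested members 5 rose and 3 fell. LIG4, the ligase that seals the ends, measured 65.2, 65.7 and 68.9 CPM and then 204, 206 and 189.9 CPM, about 3 times the control level (log2 1.59 ± 0.039, adjusted p = 1.8e-10). R399C gave 1.45. DNTT, which adds nucleotides at the junctions, rose by 0.32, and the recombinase genes RAG1 and RAG2 rose by 0.23 and 0.33. DNTT and RAG2 were higher than with R399C (adjusted p = 3.3e-05 and 3.6e-04). The end-binding subunits XRCC5 and XRCC6, the Ku proteins, were lower (log2 -0.20 and -0.22). RAG1 and RAG2 lie next to each other and overlap in the annotation, so reads may be shared between them.

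Interferon-response and antigen-presentation genes were higher in most of their members. Of 43 tested interferon genes 32 rose and 4 fell (median 0.31). With R399C 24 rose and 5 fell (median 0.204). Among the factors, IRF1 measured 189.7, 191 and 184 CPM and then 246, 248 and 249 CPM (log2 0.40 ± 0.026, adjusted p = 3.5e-07), and IRF2 rose by 0.50. GBP4, an interferon-induced GTPase, rose from 37.2 ± 0.896 CPM with tagBFP to 69.3 ± 2.39 CPM with wild-type ETV6 (log2 0.90), against 0.28 with R399C (adjusted p of the difference = 1.2e-06). In ETV6_WT 20 members were higher than in ETV6_R399C and 2 lower, 13 to 20 higher when single libraries were left out and 9 with transcript length as an offset. Of 17 tested antigen-presentation genes 11 rose and 1 fell (median 0.353). With R399C 7 rose and 2 fell (median 0.176). NLRC5, the activator of MHC class I genes, measured 44.98, 46.1 and 38.3 CPM and then 72.3, 73 and 74.5 CPM, above all controls (log2 0.76 ± 0.056, adjusted p = 1.1e-06), while R399C gave 0.16 and the forms differed (adjusted p = 2.3e-05). PSMB10, an immunoproteasome subunit, rose by 0.35, CTSS, the protease that trims the invariant chain, by 0.35, and CIITA, the class II activator, by 0.45.

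PI3-kinase signalling and FOXO target genes leaned upward. Of 42 tested members 22 rose and 7 fell (median 0.188). BTG2, an antiproliferative FOXO and p53 target, measured 13.8, 14.2 and 14.1 CPM and then 35.6, 35.7 and 35.3 CPM, with groups far apart (log2 1.34 ± 0.042, adjusted p = 1.3e-09). CDKN1B, the cyclin-dependent kinase inhibitor p27, rose from 74.6 ± 1.6 CPM with tagBFP to 114 ± 1.57 CPM with wild-type ETV6 (log2 0.61), and SESN3, a stress sensor that restrains mTORC1, by 0.79. TRIB1, a pseudokinase, fell by 1.31. R399C had a list median of 0.26, and 19 members were lower in ETV6_WT than in ETV6_R399C and 3 higher (10 and 0 with transcript length as an offset). In the G1 control list 12 of 30 members rose and 3 fell, among the risers CDKN2D (0.45), the transcription factor E2F2 (0.62) and MYB (0.43).

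Members of other signalling pathways leaned upward or split. In the NF-kB list 12 of 24 tested members rose and none fell (7 rose with transcript length as an offset), including the subunits NFKB1 (0.27) and REL (0.33) and the adaptor TIFA (0.37). Of 28 TGF-beta and BMP genes 15 rose and 5 fell (8 and 2 with the length offset), including the type II receptor TGFBR2 (0.36), the corepressor SKI (0.37) and the target ID2 (0.83). In the WNT and NOTCH list 9 of 32 rose and 9 fell (5 fell with the length offset). NOTCH1 measured 215, 224 and 192 CPM and then 329.6, 339 and 345 CPM (log2 0.68 ± 0.046, adjusted p = 4.9e-07), and the NOTCH regulator DTX1 rose by 1.05. The NOTCH target and inhibitor NRARP fell by 0.93, and the factor HES6 fell by 0.60.

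Switches of the small GTPases RAS and RAP changed in both directions. Of 33 tested exchange and activating factors, 13 rose and 8 fell (8 rose without tagBFP replicate 2 or ETV6_WT replicate 2). RASGRP2, an exchange factor of RAP1, rose from 327 ± 4.45 CPM with tagBFP to 525 ± 9.04 CPM with wild-type ETV6 (log2 0.68), and RAP1GAP2, an inactivator of RAP1, by 0.79. RASSF5, a RAP1 effector of lymphocyte adhesion, measured 225, 231 and 220.3 CPM and then 346, 344 and 352 CPM, without overlap (log2 0.63 ± 0.026, adjusted p = 8.3e-09). With R399C RASSF5 was -0.08, and the forms differed (adjusted p = 1.4e-08).

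Of 22 tested ERK pathway feedback genes 7 fell and 3 rose, with a median of -0.34. The list holds phosphatases and Sprouty-type inhibitors that restrain ERK, and transcription factors such as those of the PEA3 group that act downstream of it. Without single libraries 5 or 6 fell, and 5 with the length offset, nearer the share of all genes that fell (18.9%). ETV5, an ETS activator of the PEA3 group, measured 17.3, 14 and 15.6 CPM with tagBFP and 4.61, 5.4 and 6.12 CPM with wild-type ETV6, clearly lower (log2 -1.54 ± 0.105, adjusted p = 5.6e-07). R399C gave 0.15 (adjusted p of the difference = 1.2e-06). DUSP6, the cytosolic ERK phosphatase, measured 192, 196 and 196 CPM and then 133, 133 and 134 CPM, all lower (log2 -0.55 ± 0.025, adjusted p = 2.0e-08), against 0.18 with R399C (adjusted p of the difference = 1.0e-08). SPRED2, an inhibitor of RAF activation, fell by 1.19. The nuclear phosphatase DUSP1 and the AP-1 subunit FOSL2 went the other way, by 0.40 and 1.12. The list median with R399C was 0.057, and 8 members were lower in ETV6_WT than in ETV6_R399C and 2 higher.

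Genes of ribosome biogenesis were lower with few exceptions. Of 50 tested members of the MYC and ribosome biogenesis list 41 fell and 3 rose, with a median of -0.267, and 34 to 42 fell under the alternatives. NOP14, a small-subunit processing factor, measured 184, 184 and 176 CPM and then 148, 143 and 147 CPM, all lower (log2 -0.32 ± 0.028, adjusted p = 4.6e-06). DDX21, a nucleolar helicase, fell by 0.38, and DKC1, the pseudouridine synthase dyskerin, fell by 0.30. WDR43, a processome subunit named after its values were seen, fell by 0.33. MXD3, a MAX partner that opposes MYC, rose by 0.70. The R399C median was -0.378, and 23 members were higher in ETV6_WT than in ETV6_R399C and 1 lower (8 to 25 higher when single libraries were left out). The 75 cytosolic ribosomal protein genes did not follow: 11 rose, 7 fell and 57 did not pass, with a median of 0 (1 rose without replicate 1 or 2 of either group, 6 without ETV6_WT replicate 3 and 17 without tagBFP replicate 3; 11 to 13 fell without ETV6_WT replicate 1 or tagBFP replicate 1 or 2), while R399C had 1 higher and 47 lower. In the direct test 41 of them were higher in ETV6_WT than in ETV6_R399C and none lower, 12 to 52 higher under the alternatives.

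MYC and its partner MAX bind the E-box CACGTG, which reads alike on both strands. It lay in 15 of 43 windows of this list (34.9%) and in 9.94% of the windows of the 10526 tested protein-coding genes that had one. The list was chosen for MYC and ribosome biogenesis, so a larger share may be built into it. A window is 250 bases before to 50 after a gene's RefSeq start (GRCh38.p14), and 83.2% of the protein-coding genes searched had one. The windows of NOP14 (chr4:2963357-2963656, minus strand) and WDR43 (chr2:28894417-28894716, plus strand), the called genes of the list with this motif and the smallest p, are shown with the E-box in capitals, 15 and 3 bases after the start.
NOP14: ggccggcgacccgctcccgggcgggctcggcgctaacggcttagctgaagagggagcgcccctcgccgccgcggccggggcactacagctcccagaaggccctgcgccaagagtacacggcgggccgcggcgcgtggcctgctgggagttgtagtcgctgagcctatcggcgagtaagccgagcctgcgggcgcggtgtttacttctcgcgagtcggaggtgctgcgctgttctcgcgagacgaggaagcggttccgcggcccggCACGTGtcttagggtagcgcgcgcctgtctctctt
WDR43: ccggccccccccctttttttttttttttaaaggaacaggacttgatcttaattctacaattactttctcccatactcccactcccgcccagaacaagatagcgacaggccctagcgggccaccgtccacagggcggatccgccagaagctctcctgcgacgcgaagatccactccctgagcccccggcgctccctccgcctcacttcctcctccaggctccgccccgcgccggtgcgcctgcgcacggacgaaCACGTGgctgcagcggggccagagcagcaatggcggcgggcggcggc
A match describes these letters in this window and is neither a binding site nor a cause.

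Nuclear genes of oxidative phosphorylation fell in most cases by small amounts. Of 53 tested subunits 40 fell and none rose, with a median of -0.215, and 28 to 44 fell under the alternatives. NDUFB10, of complex I, measured 118, 120.0 and 125 CPM and then 95.3, 95.8 and 100.5 CPM, all lower (log2 -0.32 ± 0.035, adjusted p = 2.9e-05). ATP5F1B, the catalytic subunit of ATP synthase, fell by 0.30. CYC1, cytochrome c1 of complex III, fell by 0.25, and UQCRC2, its core protein, fell by 0.21. Among 13 mitochondrially encoded genes 3 fell and none rose (8 fell without ETV6_WT replicate 3 or tagBFP replicate 2, 5 without tagBFP replicate 1 and 1 without ETV6_WT replicate 1). MT-CO3 measured 1407, 1408 and 1703 CPM and then 1123, 1229 and 1316 CPM, with the controls topped by tagBFP replicate 3, which also had the highest share of mitochondrial reads, 1.419% (log2 -0.30 ± 0.074, adjusted p = 0.00804). Without that library 38 nuclear subunits and 1 mitochondrially encoded gene fell. The list median for the nuclear genes was -0.324 with R399C, and 6 members were higher in ETV6_WT than in ETV6_R399C and none lower (2 to 19 higher when single libraries were left out).

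An ETS site with flanking bases, CCGGAAG on either strand, lay in 15 of 42 windows of the oxidative phosphorylation list (35.7%) and in 18.9% of all tested genes with a window. By direction it lay in 24.7% of 2191 windows of lower genes, 12.1% of 1975 windows of higher genes and 18.9% of 6360 windows of genes that did not pass. Over all 27305 RefSeq windows, tested or not, it lay in 10.7%. The E-box CACGTG was also more frequent in lower genes, at 13.2%, against 8.51% in higher genes and 9.25% in genes that did not pass. What these splits reflect was not tested. Among genes changed at least 2-fold CCGGAAG was rarer, at 4.82% of 166 higher and 5.05% of 99 lower. A pair of adjacent ETS cores, GGAAGGAA, lay in 3.46% of all, 4.22% of the 166 and 5.05% of the 99. The 2 lower oxidative phosphorylation genes with CCGGAAG and the smallest p were SDHB, of complex II (chr1:17053983-17054282, minus strand), and COX5B, of complex IV (chr2:97645812-97646111, plus strand). They were named after their values were seen, and their log2 fold changes were -0.24 and -0.34. The ETS letters are in capitals.
SDHB: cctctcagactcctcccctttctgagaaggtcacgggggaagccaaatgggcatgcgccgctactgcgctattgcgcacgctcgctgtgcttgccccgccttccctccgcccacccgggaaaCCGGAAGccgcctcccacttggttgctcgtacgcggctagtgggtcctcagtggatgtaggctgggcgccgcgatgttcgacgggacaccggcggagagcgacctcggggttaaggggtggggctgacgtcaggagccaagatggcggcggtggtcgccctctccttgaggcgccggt
COX5B: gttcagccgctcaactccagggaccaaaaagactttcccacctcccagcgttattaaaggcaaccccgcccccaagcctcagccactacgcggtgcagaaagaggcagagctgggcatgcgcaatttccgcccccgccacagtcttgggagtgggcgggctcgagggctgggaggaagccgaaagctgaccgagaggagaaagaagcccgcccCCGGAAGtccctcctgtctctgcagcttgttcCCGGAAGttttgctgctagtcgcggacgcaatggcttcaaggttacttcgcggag
COX5B holds 2 matches within 37 bases of its start.

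Many biosynthetic and glycolytic enzymes fell. Of 29 nucleotide and one-carbon enzymes 17 fell and 1 rose (median -0.168). With R399C 23 fell and 2 rose (median -0.262). Those that fell with wild-type ETV6 included GMPS, which makes GMP (-0.35), PAICS of the purine pathway (-0.29) and the mitochondrial folate enzyme MTHFD1L (-0.45). Of 37 glycolysis and hypoxia genes 17 fell and 10 rose (5 rose with the length offset or without tagBFP replicate 2, and 6 without tagBFP replicate 1). With R399C 17 fell and 7 rose. The glycolytic enzymes PGK1, TPI1, ALDOA and HK2 had log2 fold changes of -0.44, -0.41, -0.43 and -0.47. EGLN1, the prolyl hydroxylase that marks HIF for destruction, rose by 0.36.

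Amino-acid response genes fell with wild-type ETV6 and were lower than with R399C. These genes are driven by the factor ATF4 when amino acids run short or translation is stressed, and serve amino-acid import, serine synthesis and tRNA charging. Of 38 tested 28 fell and none rose, with a median of -0.272. GARS, the glycyl-tRNA synthetase, measured 287, 281 and 279 CPM and then 217, 212 and 209 CPM (log2 -0.41 ± 0.026, adjusted p = 2.7e-07). XPOT, which exports tRNA from the nucleus, measured 268, 259 and 262 CPM and then 199, 193 and 195 CPM (log2 -0.43 ± 0.034, adjusted p = 2.0e-06). In both genes all ETV6_WT libraries lay below all controls. The mitochondrial folate enzyme MTHFD2 fell by 0.39, with R399C at 0.03. SESN2, a leucine sensor that restrains mTORC1, measured 67.6, 68.02 and 60.7 CPM and then 41.7, 36.7 and 42.4 CPM. It was lower in all ETV6_WT libraries (log2 -0.71 ± 0.085, adjusted p = 5.8e-05), and rose by 0.41 with R399C (adjusted p = 0.00167). Against the shared tagBFP libraries the R399C median was 0.179, with 20 members higher and 2 lower. The direct test placed 34 of 38 members lower in ETV6_WT than in ETV6_R399C and none higher, and 31 to 34 under every alternative run.

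The amino-acid response element, TGATGNAA on either strand, is the composite site that ATF4 and its C/EBP partners bind. It lay in 9 of 31 windows of this list (29%) and in 1.82% of all tested genes with a window. The list was chosen for genes of the ATF4 response, so a larger share may be built into it. The 4 lower members with this motif and the smallest p are shown, with the element in capitals: NARS (chr18:57621787-57622086, minus strand) and TARS (chr5:33440715-33441014, plus strand), the asparaginyl- and threonyl-tRNA synthetases, CHAC1 (chr15:40953221-40953520, plus strand), which degrades glutathione, and ASNS (chr7:97872359-97872658, minus strand), asparagine synthetase. All but NARS were named after their values were seen.
NARS: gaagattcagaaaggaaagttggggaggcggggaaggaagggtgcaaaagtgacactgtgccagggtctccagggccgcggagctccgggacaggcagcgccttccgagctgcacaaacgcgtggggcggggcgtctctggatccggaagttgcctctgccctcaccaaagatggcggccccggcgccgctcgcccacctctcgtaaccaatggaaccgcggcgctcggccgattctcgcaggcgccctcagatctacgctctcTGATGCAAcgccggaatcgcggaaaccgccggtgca
TARS: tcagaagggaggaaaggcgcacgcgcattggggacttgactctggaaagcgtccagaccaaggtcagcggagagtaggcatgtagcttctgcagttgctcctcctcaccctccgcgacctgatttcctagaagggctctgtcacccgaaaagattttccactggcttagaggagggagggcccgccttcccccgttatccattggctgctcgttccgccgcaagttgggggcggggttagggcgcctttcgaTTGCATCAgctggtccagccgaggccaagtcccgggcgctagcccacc
CHAC1: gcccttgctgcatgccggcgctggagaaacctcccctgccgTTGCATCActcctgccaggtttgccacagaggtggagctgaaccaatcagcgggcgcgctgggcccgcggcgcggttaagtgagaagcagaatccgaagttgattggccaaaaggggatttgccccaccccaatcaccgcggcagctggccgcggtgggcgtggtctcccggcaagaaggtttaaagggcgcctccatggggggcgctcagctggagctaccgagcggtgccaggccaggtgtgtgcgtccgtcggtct
ASNS: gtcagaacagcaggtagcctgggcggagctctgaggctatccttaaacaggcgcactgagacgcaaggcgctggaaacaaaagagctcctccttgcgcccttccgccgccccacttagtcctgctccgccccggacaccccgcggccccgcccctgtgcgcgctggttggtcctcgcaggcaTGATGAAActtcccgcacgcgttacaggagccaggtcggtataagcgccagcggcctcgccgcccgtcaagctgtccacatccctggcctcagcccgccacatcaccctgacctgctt
In NARS and TARS the element begins 14 and 2 bases after the start, and in CHAC1 and ASNS 209 and 68 bases before it. In this order of genes the log2 fold changes were -0.31, -0.20, -0.69 and -0.45, all lower. R399C gave -0.23, 0.03, 0.52 and 0.22, and each was lower in ETV6_WT (adjusted p = 0.0433, 4.3e-04, 3.4e-07 and 3.4e-06).

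Sterol synthesis genes were also lower with wild-type ETV6 than with R399C. Of 29 tested genes of sterol synthesis and uptake 12 fell and none rose with wild-type ETV6 (median -0.115; 7 fell and 1 rose with the length offset). SQLE, squalene epoxidase, measured 118, 120.3 and 119.7 CPM and then 104.7, 96.9 and 99.1 CPM, a small but complete separation (log2 -0.25 ± 0.033, adjusted p = 1.1e-04). CYP51A1, lanosterol demethylase, fell by 0.23, EBP, the sterol isomerase, fell by 0.31 and TM7SF2, a sterol reductase, fell by 0.42. With R399C SQLE rose by 0.21 and CYP51A1 by 0.28, and of the list 18 were higher and 1 lower (median 0.204). The direct test placed 23 of 29 members lower in ETV6_WT than in ETV6_R399C and none higher, and 21 to 24 under every alternative run.

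Unfolded protein response genes moved in both directions. Of 32 tested members 14 fell and 5 rose (median -0.104; 8 fell with the length offset and 9 without ETV6_WT replicate 3). EIF2AK3, the stress kinase PERK, measured 141, 141 and 139.7 CPM and then 209.5, 207 and 212 CPM (log2 0.58 ± 0.024, adjusted p = 1.0e-08), and EDEM1 and SYVN1, which serve degradation of misfolded proteins, rose by 0.56 and 0.37. The chaperone HSPA5, also called BiP, fell by 0.21, and CREB3L2, a membrane-bound factor, fell by 0.32. With R399C 13 members rose and 8 fell (median 0.029). In ETV6_WT 16 members were lower than in ETV6_R399C and 2 higher (6 and 2 with the length offset).

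**Figure D4:**
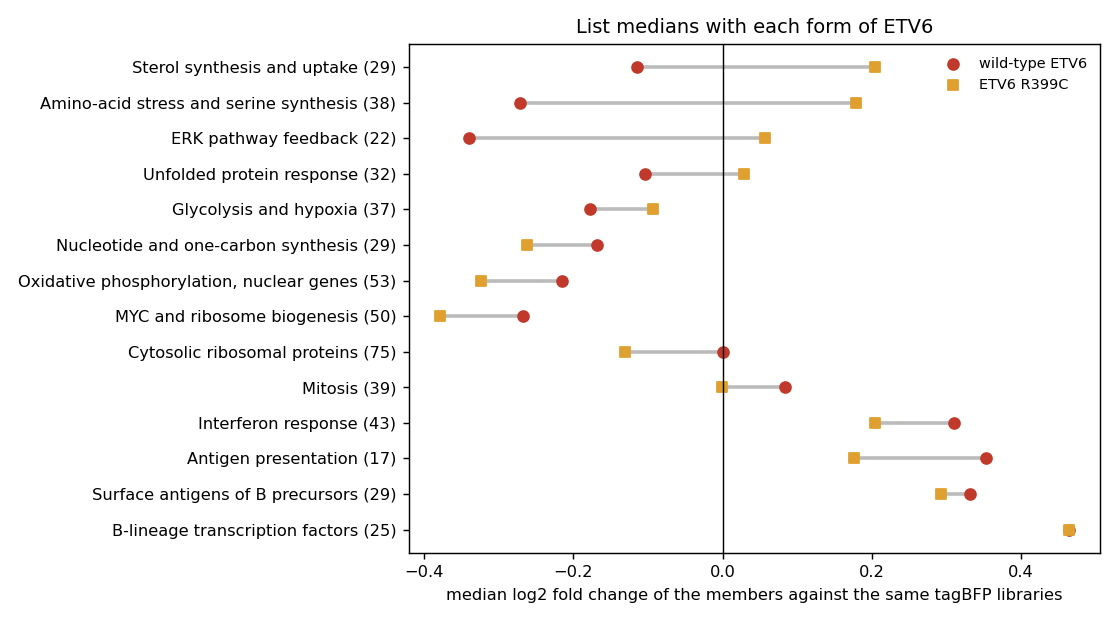
Median log2 fold change of 14 gene lists against the same tagBFP libraries (horizontal axis), wild-type ETV6 as red circles and R399C as orange squares, with the number of genes tested in parentheses. Sterol synthesis (-0.115 and 0.204) and amino-acid stress (-0.272 and 0.179) lie on opposite sides of 0, MYC and ribosome biogenesis (-0.267 and -0.378) on the same side, and the B-lineage factors coincide at 0.464.

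Lipid, DNA replication and corepressor genes changed in both directions, while chromatin and mitotic genes more often rose than fell. Of 30 fatty acid genes 7 rose (3 with the length offset) and 9 fell, with MLXIP, a glucose-sensing transcription factor, up from 266 ± 9.55 CPM with tagBFP to 684 ± 20.3 CPM with wild-type ETV6 (log2 1.36). Fatty acid synthase, FASN, fell by 0.41, and the acyl-CoA synthetases ACSL4 and ACSL5 were lower (log2 -0.55 and -0.81). Of 49 chromatin regulators 21 rose and 2 fell. Without tagBFP replicate 3 these were 16 and 7, 4 fell without tagBFP replicate 1 and 5 with no filter on low counts. The risers included the BAF subunit ARID1A (0.68), the histone demethylase KDM5B (0.66) and the deacetylase HDAC7 (0.43). Of 39 mitotic genes 16 rose and 1 fell (10 and 0 with the length offset, 10 and 2 without ETV6_WT replicate 1), led by the checkpoint protein BUB3, at 0.46 against 0.10 with R399C (adjusted p of the difference = 9.8e-06). Of 40 DNA replication genes 5 rose and 10 fell, and 1 fell with the length offset and 6 without ETV6_WT replicate 3. Of 19 partners and corepressors of ETV6 7 rose and 4 fell, a balance that rests on single libraries: 3 rose and 5 fell without tagBFP replicate 3, 3 rose without ETV6_WT replicate 2, 4 without ETV6_WT replicate 3 or tagBFP replicate 2, and 4 rose and 2 fell with the length offset. TLE1, a Groucho corepressor, fell by 0.25 and TBL1XR1, of the NCOR complex, rose by 0.22.

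Genes known to be high in leukaemia with ETV6::RUNX1 moved both ways. Of 28 tested 13 rose and 10 fell, with a median of 0.052. Among those not described above, ABHD3, a phospholipase, measured 169, 166 and 173 CPM and then 87.6, 85.5 and 84.96 CPM, with little spread in either group (log2 -0.98 ± 0.028, adjusted p = 6.9e-10), while R399C gave 0.04. EPOR, the erythropoietin receptor, fell by 0.80, and SOCS2, a feedback inhibitor of cytokine receptors, rose from 22.6 ± 0.608 CPM with tagBFP to 45.3 ± 0.33 CPM with wild-type ETV6 (log2 1.01) with R399C at -0.05. ABHD3 was lower and SOCS2 higher than with R399C (adjusted p = 1.9e-09 and 2.5e-08). EPOR overlaps RGL3 in the annotation.

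Few non-coding genes were measured well enough to be tested. Of 173 tested lncRNA genes 17 rose and 8 fell (14.5%, against 36.5% of all genes). BLACE, a transcript of B-lymphoblastic leukaemia cells, rose from 107.2 ± 1.9 CPM with tagBFP to 131 ± 0.698 CPM with wild-type ETV6 (log2 0.29). C5orf56 lies beside IRF1 and overlaps it in the annotation, and rose by 0.49. HCG27, in the HLA region, rose by 0.62.

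Few genes changed their use of start sites. Transcripts whose annotated 5′ ends lay within 100 bases of the next were joined, and the share of each start site in its gene's reads was tested in 5791 genes with more than 1 site. Of these, 35 (0.604%) passed in edgeR and 209 (3.61%) in limma, 27 in both. On simulated transcript shares the false calls of both tools exceeded the nominal 5%, by more than in the gene test, so these counts are likely to hold more false calls than the threshold states. The same test on single transcripts passed 41 of 8557 genes (0.479%), or 237 (2.77%) in limma, with 21 in both. Of the 35 genes, 13 did not pass the test on total level. Salmon infers these shares from reads that overlap many transcripts, and several single transcripts moved between 0% and most of a gene, so start sites are described here.

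ARPP21, a cyclic AMP-regulated phosphoprotein gene that is high in ETV6::RUNX1 leukaemia, had a larger share of reads assigned to an internal start. The site joins 3 transcripts, and ARPP21-216 among them is annotated as a retained intron that ends at chr3:35685887. Whether the reads come from this start or from another part of these transcripts was not tested. The start site of ARPP21-216 (chr3:35680937-35681000, GENCODE 29, hg38) held 5.04%, 5.38% and 5.95% of the gene's reads with tagBFP and 21.2%, 19.3% and 19.7% with wild-type ETV6. Its reads went from 18.2 ± 1.76 to 95.04 ± 5.6 CPM (adjusted p for the gene = 7.8e-18). The neighbouring site of ARPP21-207 (chr3:35679745-35679785) had 103.6 ± 5.89 and 103.4 ± 9.79 CPM with overlapping groups, while its share went from 33.3%, 31.1% and 29.02% to 20.3%, 24.5% and 20.7%. With R399C the ARPP21-216 site held 11.7% ± 0.497 (SD, n = 3), a value between the groups whose difference from wild-type was not tested.

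CSNK1E, which encodes casein kinase 1 epsilon of the circadian clock, shifted between neighbouring starts. The upstream site of CSNK1E-201 (chr22:38318084) held 20.8%, 24.6% and 21.6% with tagBFP and 3.8%, 6.6% and 5.95% with wild-type ETV6. The site of CSNK1E-203 (chr22:38317408-38317439) went from 66.6%, 60.3% and 65.1% to 81.9%, 80.3% and 80.96% (adjusted p = 1.7e-07). In reads, the first went from 33.5 ± 2.64 to 8.82 ± 2.5 CPM and the second went from 96.1 ± 5.91 to 131 ± 3.4 CPM, with no overlap in either. CSNK1E overlaps the readthrough gene TPTEP2-CSNK1E.

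DBNL, an actin-binding adaptor of lymphocytes, changed the shares of its annotated start sites with little change in its sum. The internal site of DBNL-204 (chr7:44050244) held 18.2%, 18.1% and 17.9% with tagBFP and 31.5%, 31.8% and 32.2% with wild-type ETV6, almost without spread (adjusted p = 5.6e-06). Its main site (chr7:44044640-44044730) went from 112 ± 2.04 to 97.5 ± 3.71 CPM, while the gene's total had a log2 change of 0.07 (adjusted p = 0.0912). The window of the main site (chr7:44044452-44044751, plus strand, RefSeq GRCh38.p14) is shown because it holds CCGGAAG, in capitals, 5 bases before the start.
DBNL: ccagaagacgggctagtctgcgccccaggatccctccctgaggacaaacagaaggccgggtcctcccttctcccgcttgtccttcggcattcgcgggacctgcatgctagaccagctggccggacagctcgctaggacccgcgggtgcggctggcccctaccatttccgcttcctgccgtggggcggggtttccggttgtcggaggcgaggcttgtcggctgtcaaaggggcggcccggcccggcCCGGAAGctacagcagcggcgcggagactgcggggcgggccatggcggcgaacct
DBNL overlaps PGAM2 and other genes in the annotation. DBNL-204 also differs at its 3′ end: it is 9618 bases long and ends at chr7:44069456. DBNL-210 and DBNL-220 of the main site are 1808 and 2117 bases long and end at chr7:44061333 and chr7:44061716. Whether the reads given to DBNL-204 come from its start or from its longer 3′ part was not tested.

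In LIG4 and NRN1 the reads of 1 site separated the groups and those of the other overlapped. LIG4-202 (chr13:108218368) went from 9.89%, 10.8% and 8.37% to 1.99%, 3.36% and 1.74% of LIG4 reads (adjusted p = 4.2e-04). Its reads went from 6.43 ± 0.661 to 4.76 ± 1.91 CPM, lower on average but with 1 ETV6_WT library among the controls. The reads of LIG4-201 (chr13:108214782) went from 57.2 ± 2.22 to 193 ± 8.13 CPM. NRN1, which encodes the neuronal surface protein neuritin and was named after its values were seen, showed the reverse. Its total fell from 270.4 ± 8.65 CPM with tagBFP to 118 ± 2.27 CPM with wild-type ETV6 (log2 -1.19), with NRN1-201 at 250.4 ± 8.59 and 97.5 ± 2.18 CPM. NRN1-202 held 19.26, 21.67 and 19.06 CPM and then 21.18, 20.19 and 21.19 CPM, with overlap, and its share went from 7.38%, 7.96% and 6.86% to 17.5%, 17.2% and 18.2% (adjusted p = 2.9e-06).

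PPP2R5C, a regulatory subunit of protein phosphatase 2A, had more reads at both of its main starts and a larger share at the first. The site of PPP2R5C-201 (chr14:101761798-101761900) held 45.6%, 47.98% and 44.2% and then 57.8%, 58.6% and 58.8% (adjusted p = 4.2e-04), from 100.8 ± 2.07 to 227 ± 0.944 CPM. FAM169A moved from 14.9%, 8.39% and 10.1% to 45.5%, 50.9% and 39.04% at the site of FAM169A-204 (adjusted p = 1.4e-04), and MEX3D, an RNA-binding ubiquitin ligase, from 11.4%, 9.83% and 7.31% to 40.2%, 27.4% and 25.5% at that of MEX3D-202 (adjusted p = 0.00173). The total of MEX3D had a log2 change of 0.06 (adjusted p = 0.583). With R399C the 3 sites held 57.9% ± 0.788, 54.3% ± 3.26 and 35.4% ± 1.92, differences from wild-type that were not tested.

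The calls of SMARCA2 and ICAM2 were lost in some settings. SMARCA2, an ATPase of the BAF complex, fell by 0.36, with the internal start of SMARCA2-201 (chr9:2158449-2158473) at 196 ± 5.01 and 119.5 ± 5.08 CPM. The upstream site of SMARCA2-204 (chr9:2015186-2015288) went from 27.6%, 31.4% and 26.6% to 40.4%, 39.8% and 41.7% (adjusted p = 0.0119), which was 0.0915 without ETV6_WT replicate 3 and 0.123 without tagBFP replicate 3. ICAM2, an adhesion ligand of leukocyte integrins, went from 30.7%, 33.1% and 33.8% to 54.3%, 55.6% and 54.8% at ICAM2-203 (adjusted p = 0.0312). The shares of ICAM2 separate widely, yet its adjusted p ran up to 0.187 when single libraries were left out. It was 0.0552 at a minimum share of 10%, 5.75e-06 in the gene-level F test and 1.94e-06 in limma. Of the single transcripts, RPS24-201 of the ribosomal protein gene RPS24 went from 13.5%, 11.9% and 12.4% to 19.6%, 19.6% and 20.2% (adjusted p = 0.00168), while the total of RPS24 had a log2 change of 0.05 (adjusted p = 0.572).

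**Figure D5:**
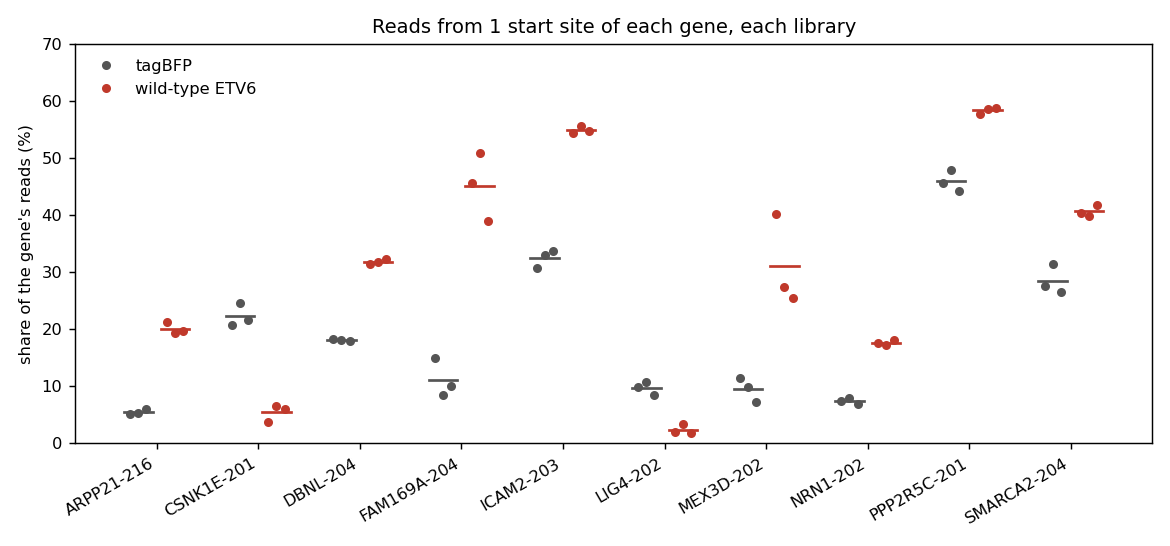
Share of a gene's reads from 1 start site (vertical axis, %) in each library for 10 start sites named by a transcript, tagBFP in grey and wild-type ETV6 in red, with the group mean as a bar. The groups do not overlap at any of the 10 sites. The naming rule for share changes took only shares that did not overlap, so this separation was partly built in. ARPP21-216 rises from 5.95% or less to 19.3% or more, and CSNK1E-201 falls from 20.8% or more to 6.6% or less.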

How the data were processed

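RNA from transduced Reh populations was prepared with a stranded kit, per the labels' protocols. Transcripts were quantified by the authors with Salmon 0.11.3 on hg38, per the submitters' processing notes, and the deposited tables give for 167268 transcripts an estimated count, which need not be whole, and TPM, which Salmon scales by transcript length and library total. Apart from a date in the file names, the annotation release behind them is not given in the sources used here. Transcripts were named with GENCODE 29 (90.3% matched, 93.2% of these with the same length), estimated counts were summed to 33367 genes and rounded, and unnamed transcripts (7.27% to 7.56% of reads) were left out.

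Genes were tested with edgeR 4.0.16 in R 4.3.3 (TMM scaling, filterByExpr, quasi-likelihood test, 9 libraries of ETV6_WT, ETV6_R399C and tagBFP in 1 fit), with Benjamini-Hochberg adjustment over all genes and a threshold of 0.05. SE is the log2 fold change divided by the root of the test statistic. Shares of transcripts and of start sites within a gene were tested with edgeR diffSpliceDGE (Simes) on features of at least 5% mean share. Adjusted p-values without a named tool come from these. R399C and wild-type ETV6 share their tagBFP controls, so their difference was tested directly. On simulated counts the share of false calls was above the nominal threshold for genes and further above it for usage. The simulations held a different number of changed genes than passed here, so the size of that share need not carry over. Alternatives used DESeq2 1.42.0, limma 3.58.1, other scalings, filters and designs, and left out single libraries. Promoter windows came from RefSeq tables (GRCh38.p14), with human chromosome 8 left out.

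Named genes were ETV6 and the 12 protein-coding genes per direction with the largest TPM difference. The 20 per direction with the largest fold change were added (at least 5 CPM, no exon overlap). Up to 6 per list with the smallest p, the 12 with the largest share change per usage test and 6 non-coding genes were also named. The TPM, fold and share rules took only genes whose groups did not overlap, so that separation was built into them. Not all are printed. The comparison and the lists were chosen with earlier results of these data known, so no list is independent evidence of its direction. Some genes are not reported here.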

Additional observations from a re-analysis of the deposited data

How the results depend on the processing

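All 152 single-gene results of ETV6_WT against tagBFP, 1976 values in all, kept their direction and their side of the threshold under each alternative run. Named genes were picked mainly for a small p or a large change, which favours such an outcome. The single-gene differences between ETV6_WT and ETV6_R399C were not compared in this way. The counts moved more. With average transcript length as an offset 2913 genes changed (2757 of them shared with the 5202) and 1236 differed between ETV6_WT and ETV6_R399C (1145 shared with the 3044), and the cause was not tested. Leaving out single libraries gave 4322 to 4813 genes changed, which tests fewer samples, and 2008 to 3110 different from R399C. DESeq2 gave 4381 and 2383 genes.

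Usage counts depended most on the settings. Transcript usage passed in 41 genes and in 179 by the F test over each gene, 237 in limma, 15 at a minimum share of 10% and 217 with no minimum share. Start-site usage passed in 35 genes and in 165 by the F test, 209 in limma, 18 at 10% and 126 with no minimum. The limma test, and a start-site test on transcripts of unchanged length (29 genes), were chosen after seeing the data. Without single libraries the ranges were 23 to 51 and 22 to 46 genes, both lowest without tagBFP replicate 2. For these usage counts too the cause was not tested. Of 155 values for printed sites 147 kept the call, and the 8 that lost it belong to ICAM2 and SMARCA2. These values leave out the runs with start sites joined within 500 or 20 bases and the test on transcripts of unchanged length. The sites of FAM169A (chr5:74866344-74866387 and chr5:74866838) lie within 500 bases and would be joined, so that shift depends on the joining distance.

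Replicate numbers did not pair the samples, since deviations of same-numbered ETV6_WT and tagBFP libraries correlated at -0.023 to 0.013. With the replicate block 5086 genes changed, 2973 differed from R399C, and usage passed in 23 genes for transcripts and 31 for start sites. Few libraries and the estimation of shares among overlapping transcripts limit the usage results, and genes with few reads limit large folds.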

Other observations

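The lists described here changed in both directions, and several had shares near those over all genes (17.6% higher and 18.9% lower), so their counts are given as a description. Of 34 tested cytokine receptor and JAK-STAT genes 13 rose and 5 fell. The kinase PIM1, a target of STAT5 that supports survival, measured 78.4, 77.4 and 77.3 CPM with tagBFP and 55.99, 56.04 and 55.3 CPM with wild-type ETV6, all lower (log2 -0.48 ± 0.029, adjusted p = 2.1e-07). With R399C it rose by 0.40, and the forms differed (adjusted p = 6.7e-09), while its relative PIM3 rose by 0.46. JAK1 rose by 0.52 and IL2RG, the common gamma chain, by 0.35. Of 31 genes of the BCL2 family and inhibitors of apoptosis 8 rose and 2 fell (4 rose with transcript length as an offset). BID, which links death receptors to mitochondria, fell by 0.77, and the anti-apoptotic BCL2 rose by 0.17. Of 26 p53 targets 6 rose and 7 fell (3 and 4 with the length offset), with the stress-response gene TP53INP1 at 0.70 and the death receptor TNFRSF10B at -0.38. Among 21 other ETS factors 9 rose and 4 fell, including ETS2 (0.36) and ELF4 (0.44).

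Of 25 integrins and adhesion genes 6 rose and 5 fell, near the shares over all genes, and 3 fell without ETV6_WT replicate 3 or with the length offset. ITGB2, the beta chain of leukocyte integrins, measured 17.9, 18.4 and 16.4 CPM and then 11, 9.13 and 10.9 CPM, all lower (log2 -0.77 ± 0.077, adjusted p = 1.4e-05). With R399C ITGB2 was 0.32, and the forms differed (adjusted p = 2.7e-06). Of 34 semaphorins, ephrins and guidance receptors 11 rose and 7 fell, with SEMA7A at 1.18 and EPHB4 at -0.39. Of 34 calcium and ion channel genes 12 rose and 4 fell (7 and 2 with the length offset, 9 and 8 without tagBFP replicate 3, and 7 fell without tagBFP replicate 2), with the calcineurin inhibitor RCAN1 at 0.75 and the calcium pump ATP2A3 at 0.77. Of 51 autophagy and lysosome genes 10 rose and 5 fell, and of 50 splicing regulators 4 rose and 12 fell (1 and 6 with the length offset, and 19 fell without tagBFP replicate 2). Of 16 tested genes that EWSR1::FLI1 activates through GGAA repeats in Ewing sarcoma 4 rose and 2 fell. One of them, FCGRT, the neonatal Fc receptor, measured 13.5, 14.1 and 11.3 CPM and then 20.4, 21.7 and 20.4 CPM, all higher (log2 0.68 ± 0.089, adjusted p = 1.2e-04), against -0.42 with R399C (adjusted p of the difference = 1.1e-05).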
